A study of Mus musculus with 292 samples.

Results

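The genes described here are the mouse cytochrome P450 genes of families 1 to 4 that were expressed in liver. They were chosen by name and level: a symbol of Cyp, a digit from 1 to 4, a lower-case letter and a number, no pseudogene ending, and a mean of 0.5 CPM or more over the liver libraries (CPM is a gene's count scaled to the same total in every library). Of 48795 gene identifiers in each table, 48349 had a symbol and 99 symbols had this form; 18 were pseudogenes by name, 28 lay under 0.5 CPM, and 53 genes of 17 subfamilies remained. The members just inside the limit were Cyp2a4 at 0.526, Cyp2d12 at 0.537 and Cyp2d11 at 0.591 CPM, and the genes just outside were Cyp4f18 at 0.482 and Cyp2s1 at 0.347 CPM.

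Cytochrome P450 enzymes of these families are heme proteins of the endoplasmic reticulum that oxidise drugs, toxins, steroids, bile acids and fatty acids. They take their electrons from cytochrome P450 oxidoreductase (Por), and some also from cytochrome b5 (Cyb5a). Hepatocytes hold most of the body's P450, and the genes are controlled by nuclear receptors such as the constitutive androstane receptor (Nr1i3), the pregnane X receptor (Nr1i2) and PPAR alpha (Ppara), by the aryl hydrocarbon receptor (Ahr), by growth hormone through Stat5b, and by the clock-driven factors Dbp, Tef and Hlf.

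The study measured messenger RNA in liver, cerebral cortex, striatum and hypothalamus of male C57BL/6J mice, wild type and 26 weeks of age, with no treatment named in the labels. Tissue was taken every 3 h over 36 h, so that ZT0 to ZT12 were sampled in a first and a second cycle, but ZT15, ZT18 and ZT21 once (ZT is zeitgeber time in hours, counted from lights on). Each library came from 1 mouse, and 58 of 79 mice gave all 4 tissues. Liver had 77 libraries, cortex 78, striatum 60 and hypothalamus 77.

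The liver library of ZT18 replicate 4 was left out of every liver value, as the choice of members asks: it held 11693613 counts, of which the 53 genes took 0.337%, against 1.74% to 3.02% in the other libraries. The remaining 76 liver libraries held 27491411 to 41861697 counts and were spread as 12, 12, 12, 11, 12, 6, 5 and 6 libraries over ZT0 to ZT21. The 6 hepatocyte markers summed to between 84852 and 124593 CPM in these libraries, so the tissue label and the markers went together. In brain, 5 libraries stood far from their tissue in markers. In cortex the cortical neuron markers summed to 6.27 CPM in ZT0 replicate 1 and 13.7 CPM in ZT9 replicate 9 against a median of 1175, and the striatal neuron markers to 1480 and 2573 CPM against a median of 401. The striatum library of ZT21 replicate 3 held cerebellar markers at 2820 CPM against a median of 0.798. In hypothalamus the pituitary markers summed to 37592 CPM in ZT0 replicate 9 and 28160 CPM in ZT9 replicate 9 against a median of 16.2. The striatum library of ZT3 replicate 5 held 11677671 counts, where the others of that tissue held 28742584 or more. All 6 were kept, and counts without them are given beside the brain results.

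Levels between genes were compared in FPKM, which divides by transcript length. Cyp2e1, which oxidises ethanol and acetaminophen, had the highest level in liver at 3549 ± 887 FPKM (SD, n = 76), 32.7% of the summed level of the 53 genes. Next came Cyp2d9, a steroid hydroxylase that is higher in male than in female mice, at 950 ± 197 FPKM, Cyp2f2, which activates naphthalene and is known from periportal hepatocytes, at 810 ± 87.9 FPKM, and Cyp3a11, a main drug-metabolising enzyme and target of the pregnane X receptor, at 603 ± 152 FPKM. Cyp2d26, Cyp3a25, Cyp2d10, Cyp1a2, Cyp2c70 and Cyp2c29 followed between 526.3 and 301 FPKM, and the same 10 genes were highest by the median. These neighbours were not all separate: the SD of Cyp2c70 was 100.2 FPKM around a mean of 311, so its libraries covered the means of Cyp3a25, Cyp2d10, Cyp1a2 and Cyp2c29. At the other end of the levels, the single Cyp1b1 gene stood at 0.132 FPKM. By subfamily, the 7 Cyp2d genes made 18.1% of the summed level, the 13 Cyp2c genes 14.7% and the 4 Cyp3a genes 9.58%.

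**Figure D1:**
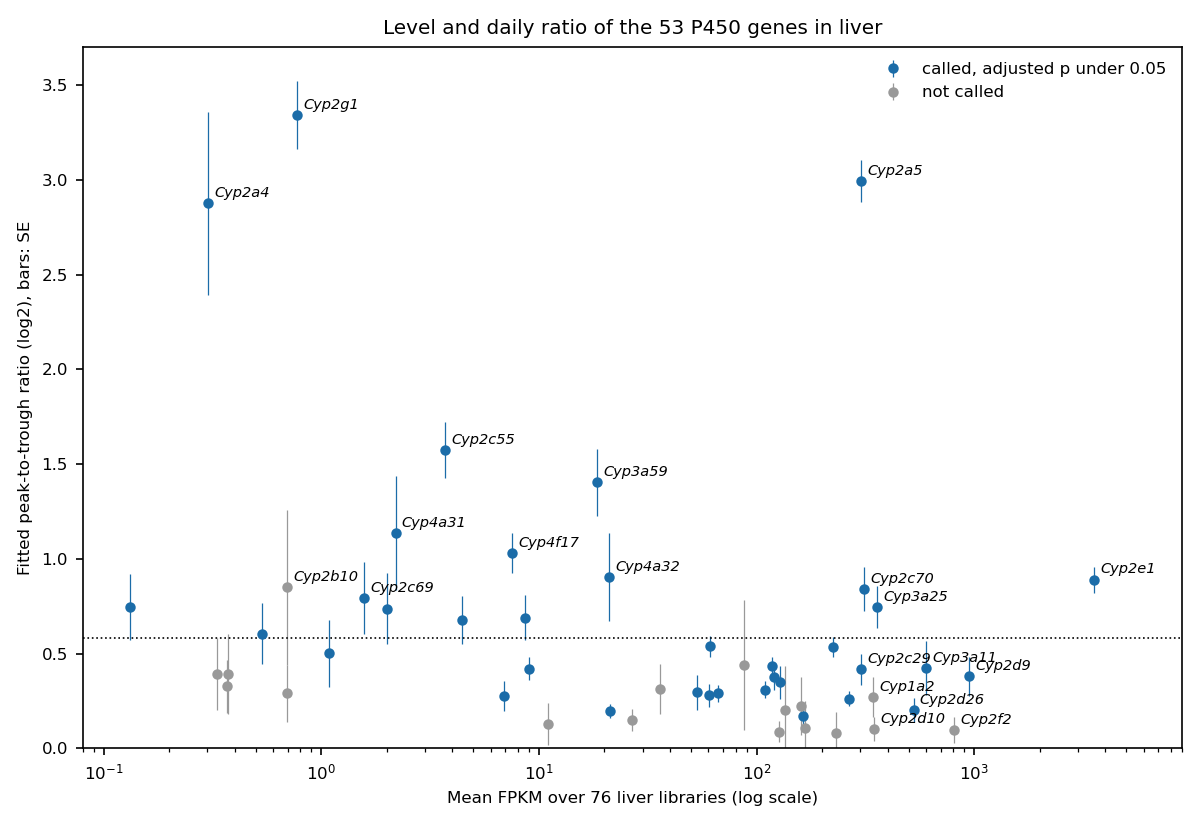
Mean FPKM of each of the 53 genes over 76 liver libraries (horizontal, log scale) against the fitted peak-to-trough ratio of its daily course (vertical, log2; bars are SE; the dotted line is 1.5-fold). Cyp2e1 lies at 3549 FPKM and a log2 ratio of 0.89, Cyp2a5 at 301 FPKM and 2.99, while Cyp2f2 at 810 FPKM lies at 0.10 and was not called.

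Which of these genes followed the time of day in liver was tested with a cosine and sine of 24 h in edgeR's quasi-likelihood test on all genes, and a gene was called at a Benjamini-Hochberg adjusted p under 0.05 over the 16258 genes tested. By this test 36 of the 53 genes changed over the day, where 74.8% of all genes tested were called, and 17 changed by at least 1.5-fold from the trough to the peak of the fitted curve, against 27.9% of all genes. Both shares are near those of all genes, so the number of calls by itself sets these genes apart in neither direction. With ZT as a factor in place of a curve, 32 of the 53 were called, against 72.1% of all genes. What the data hold is the size and timing of each gene: fitted peaks of 30 called genes, or 83.3%, fell between ZT0 and ZT12 and of 6 between ZT12 and ZT24, where 52.4% of all called genes peaked between ZT0 and ZT12. The libraries of the highest and the lowest ZT group did not overlap in 13 of the 53 genes, against 25.2% of all genes. Since the tissue was measured in bulk, fewer cells of a type and less RNA per cell cannot be told apart anywhere below.

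The summed share of the 53 genes in all liver counts moved with Cyp2e1. It lay at 1.78%, 2.22% and 2.45% (lowest, median and highest library) at ZT0 and at 2.19%, 2.83% and 3.02% at ZT12. The ranges of the libraries at these times overlapped, and the median at ZT12 was the highest of the 8 ZT groups.

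Cyp2a5, which hydroxylates coumarin and is the mouse counterpart of the human nicotine-oxidising CYP2A6, had the largest ratio among the genes with 5 CPM or more. Its libraries lay at 130, 163 and 314 CPM (lowest, median, highest) at ZT0, 142, 190 and 222 at ZT3, 233, 361 and 544 at ZT6, and 595, 1062 and 1255 at ZT9. They lay at 1048, 1278 and 1758 CPM at ZT12, then at 699, 962 and 1044 at ZT15, 510, 675 and 878 at ZT18, and 253, 398 and 463 at ZT21. Every library of ZT12 was above every library of ZT0, ZT3, ZT6, ZT15, ZT18 and ZT21. The fitted ratio was 7.96-fold (log2 2.99, SE 0.11) with a peak at ZT12.9 and an adjusted p of 6.28e-36. The gene lies on chromosome 7, and its promoter, 250 bases before to 50 bases after the transcription start in RefSeq (GRCm38.p6, chr7:26835089-26835388, plus strand), is shown because the gene carries the largest daily change among the well expressed members. Capitals mark the only match to any of the 7 motifs searched, the nuclear receptor core AGGTCA read on the opposite strand, 30 bases past the start.
Cyp2a5: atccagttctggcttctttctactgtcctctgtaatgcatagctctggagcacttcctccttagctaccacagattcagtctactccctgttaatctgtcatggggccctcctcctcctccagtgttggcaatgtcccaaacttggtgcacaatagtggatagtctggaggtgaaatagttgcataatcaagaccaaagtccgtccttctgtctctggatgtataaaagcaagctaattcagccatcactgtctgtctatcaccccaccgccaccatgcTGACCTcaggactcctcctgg

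Cyp2a4, a close copy of Cyp2a5 known as the female-biased testosterone hydroxylase of this subfamily, ran at a mean of 0.526 CPM with a fitted ratio of 7.35-fold and a peak at ZT11.7 (adjusted p = 2.11e-07). Its libraries at ZT0 and ZT12 overlapped, with 0, 0.0327 and 0.412 CPM against 0.350, 0.623 and 10.7 CPM. The 10.7 CPM came from ZT12 replicate 6. The median over the 76 libraries was 0.254 CPM, so the mean above the limit of 0.5 CPM leaned on that library. Without the 8 libraries set apart further below, which include it, the fitted log2 ratio was 2.20. Leaving out each library in turn gave log2 ratios from 1.99 to 3.20, and the gene was called in 76 of 76 fits. This course is uncertain: 36.1% of the 50-base windows of Cyp2a4 also occur in Cyp2a5, whose mean was 623 CPM, and how the counting shared such reads is not given in the sources used here. Cyp2a12, another Cyp2a gene, changed by 1.12-fold only, and Cyp2a22 by 1.42-fold, a call that was lost without ZT9 replicate 2 (adjusted p = 0.0510).

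Cyp2e1 lay at 3369, 5678 and 6262 CPM at ZT0 and at 6945, 10542 and 11809 CPM at ZT12. No library of ZT12 was as low as any of ZT0. Its fitted ratio was 1.85-fold (log2 0.89, SE 0.07) with a peak at ZT12.0 (adjusted p = 1.29e-18). Cyp2g1, known as a P450 of the olfactory epithelium, was far lower but had the largest ratio of the 53 genes, at 10.1-fold with a peak at ZT9.2 (adjusted p = 1.28e-28). Its libraries lay at 0.125, 0.455 and 0.654 CPM at ZT21 and at 3.17, 3.72 and 4.32 CPM at ZT9, with no overlap. Cyp2f2, the third most abundant gene per length, gave 1358, 1684 and 1946 CPM at ZT0 and 1200, 1581 and 1821 CPM at ZT12, and was not called (1.07-fold, adjusted p = 0.418).

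**Figure D2:**
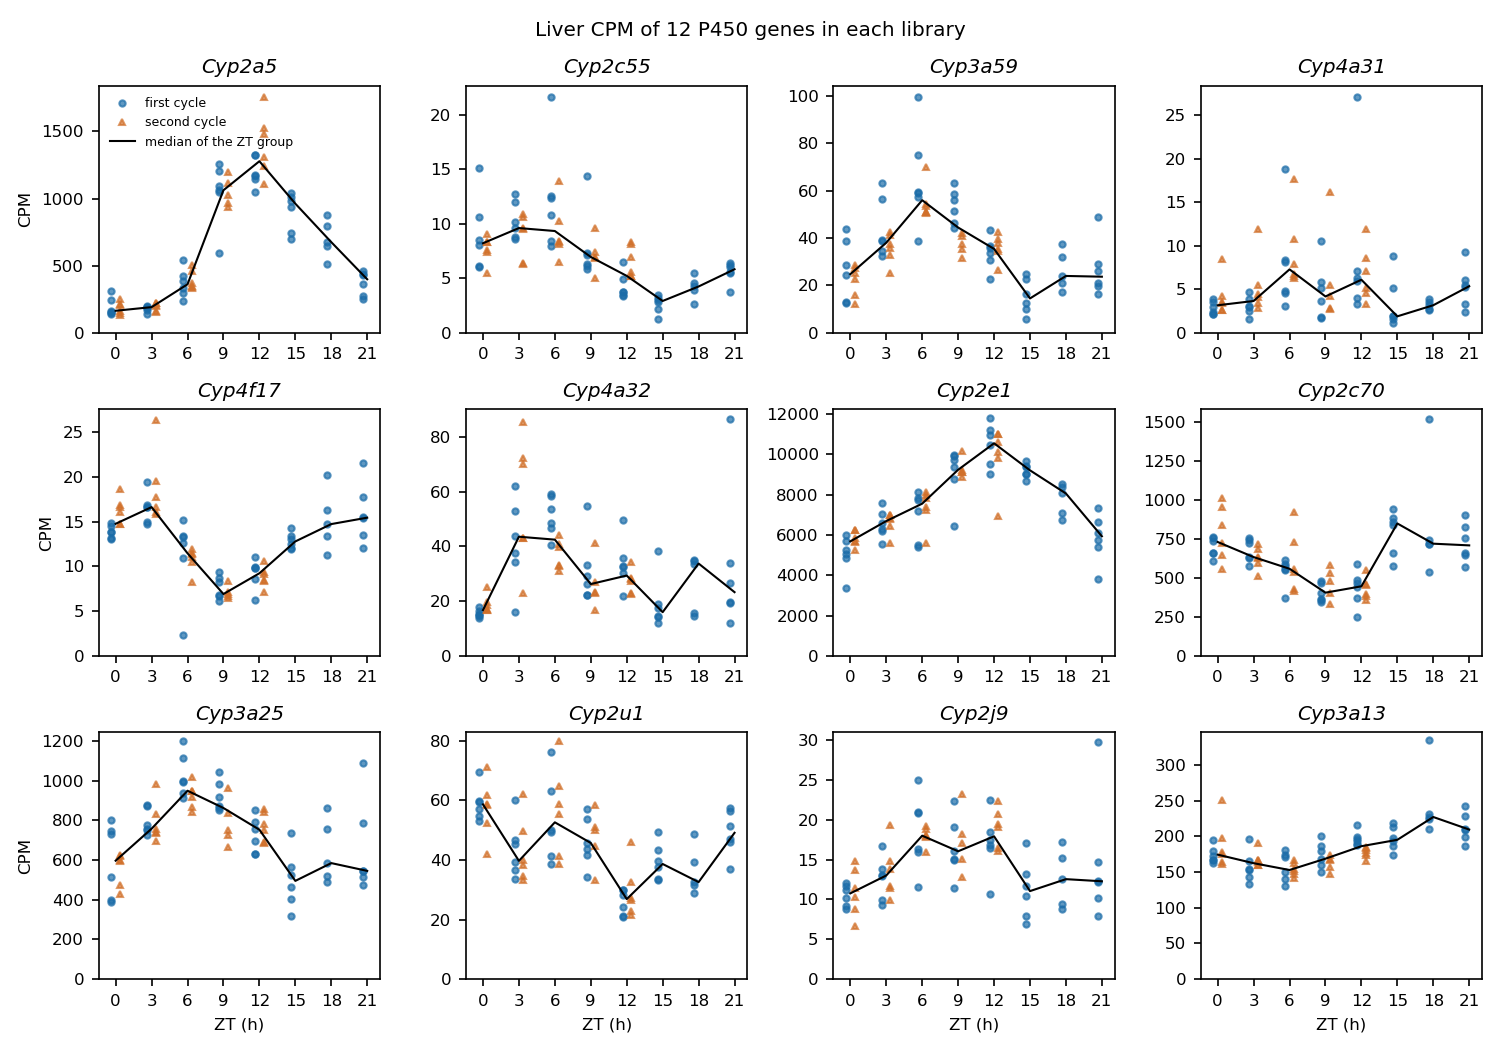
CPM of 12 called P450 genes in each liver library against ZT (hours); circles are mice of the first cycle, triangles mice of the second, and the line joins the medians of the ZT groups. Cyp2a5 and Cyp2e1 are highest at ZT12, with medians of 1278 and 10542 CPM, while Cyp3a59, Cyp3a25 and Cyp2c55 have their lowest medians at ZT15.

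The Cyp2c subfamily holds epoxygenases and drug-metabolising enzymes, and 8 of its 13 genes changed over the day, where 74.8% of all genes did. Cyp2c55, an arachidonic acid hydroxylase, lay at 6.32, 9.60 and 12.7 CPM at ZT3 and at 1.21, 2.91 and 3.48 CPM at ZT15. The groups did not overlap, and the fitted ratio was 2.98-fold (log2 1.57, SE 0.15) with a peak at ZT4.4 (adjusted p = 1.09e-14). Cyp2c70, which makes the muricholic acids of the mouse, went the opposite way from most members: its libraries lay at 334, 405 and 584 CPM at ZT9 and at 578, 848 and 940 CPM at ZT15, ranges that just touch. Its fitted ratio was 1.79-fold with a peak at ZT21.0 (adjusted p = 9.57e-09). Cyp2c23, known from rat kidney as an arachidonic acid epoxygenase, changed by 1.45-fold with a peak at ZT9.7 and lay at 336 to 427 CPM at ZT0 and 492 to 604 CPM at ZT9. Cyp2c29, a target of the constitutive androstane receptor, changed by 1.34-fold with a peak at ZT2.5, from 957 to 1146 CPM at ZT3 and 579 to 943 CPM at ZT12. In both genes the ranges at these times stayed apart.

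The other Cyp2c calls were smaller or sit on copies. Cyp2c67 (1.30-fold), Cyp2c68 (1.21-fold), Cyp2c40 (1.67-fold) and Cyp2c69 (1.73-fold) were called with fitted peaks between ZT1.2 and ZT4.7. These 4 genes share 43.3% to 60.3% of their 50-base windows with another gene, mostly with one another, so their counts are uncertain. Cyp2c37, Cyp2c38, Cyp2c39, Cyp2c50 and Cyp2c54 were not called, with fitted ratios from 1.06- to 1.22-fold.

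The Cyp2d genes, the mouse relatives of the human drug-metabolising CYP2D6, changed little with time: 3 of 7 were called, against 74.8% of all genes. Cyp2d9 lay at 760, 1369 and 1554 CPM at ZT0 and at 887, 1818 and 2053 CPM at ZT9, with overlapping libraries and a fitted ratio of 1.30-fold (adjusted p = 0.00293). Cyp2d22 changed by 1.24-fold with a peak at ZT11.3 (adjusted p = 2.23e-08) and Cyp2d26 by 1.15-fold (adjusted p = 0.0115). Cyp2d26 lay at 610, 828 and 956 CPM at ZT0 and at 846, 942 and 974 CPM at ZT18, and Cyp2d10, which was not called (1.07-fold, adjusted p = 0.336), at 433, 548 and 621 CPM at ZT0 and at 424, 588 and 623 CPM at ZT9. In both the libraries of these times overlapped. Cyp2d40, Cyp2d11 and Cyp2d12 were not called either. The targets of the aryl hydrocarbon receptor divided: Cyp1b1, which hydroxylates oestrogens, was called at 1.68-fold at a mean of 0.677 CPM, and neither Cyp1a gene was called. Cyp1a2, which oxidises caffeine and lies in pericentral hepatocytes, gave 419, 615 and 891 CPM at ZT0 and 365, 752 and 924 CPM at ZT9, a fitted ratio of 1.21-fold with an adjusted p of 0.0502, and 15 of 76 fits that each left out 1 library put it under 0.05. Cyp1a1, the most inducible target of the receptor, stood at a mean of 0.961 CPM and gave 1.254-fold (adjusted p = 0.0904). Cyp2b10, the classical phenobarbital-induced target of the constitutive androstane receptor, was low and scattered, at 0.135 to 7.08 CPM within ZT0, and was not called (adjusted p = 0.162).

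All 4 Cyp3a genes changed over the day, where 74.8% of all genes did, and 3 of the 4 had their lowest median at ZT15. Cyp3a59 lay at 38.6, 55.9 and 99.5 CPM at ZT6 and at 5.67, 14.4 and 24.7 CPM at ZT15, with no overlap. Its fitted ratio was 2.65-fold (log2 1.40, SE 0.18) with a peak at ZT6.7 (adjusted p = 1.69e-10). Cyp3a25 lay at 842, 949 and 1198 CPM at ZT6 and at 316, 494 and 735 CPM at ZT15, again apart, and its ratio was 1.68-fold with a peak at ZT7.2 (adjusted p = 3.00e-08). Cyp3a11 gave 2952, 3461 and 4495 CPM at ZT3, and its 6 libraries at ZT15 were split, at 609, 662, 789, 1506, 2875 and 3387 CPM. The 24 h fit called it at 1.34-fold with an adjusted p of 0.0232, and that call was lost without ZT15 replicate 2 (adjusted p = 0.0501). Cyp3a13 peaked at another time than its neighbours: it lay at 130, 153 and 181 CPM at ZT6 and at 211, 227 and 335 CPM at ZT18, with a fitted peak at ZT17.5 and a ratio of 1.45-fold (adjusted p = 4.71e-13).

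The promoters of Cyp3a59 and Cyp3a25 are shown because the genes had fitted peaks at ZT6.7 and ZT7.2 and share sequence; Cyp3a25 was added to Cyp3a59 after its values were seen. They lie on chromosome 5 at chr5:146079008-146079307 (plus strand) and chr5:146009568-146009867 (minus strand) of GRCm38.p6 in RefSeq, and 289 of their 300 bases are identical. Capitals mark the nuclear receptor core AGGTCA, which starts 177 bases before the transcription start, and its reading on the other strand, TGACCT, 156 bases before it, in both genes.
Cyp3a59: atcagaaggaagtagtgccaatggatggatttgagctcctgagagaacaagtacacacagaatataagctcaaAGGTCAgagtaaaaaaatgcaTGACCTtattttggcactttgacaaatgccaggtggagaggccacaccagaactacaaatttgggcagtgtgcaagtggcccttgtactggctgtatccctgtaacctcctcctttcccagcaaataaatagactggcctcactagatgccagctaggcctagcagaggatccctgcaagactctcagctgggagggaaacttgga
Cyp3a25: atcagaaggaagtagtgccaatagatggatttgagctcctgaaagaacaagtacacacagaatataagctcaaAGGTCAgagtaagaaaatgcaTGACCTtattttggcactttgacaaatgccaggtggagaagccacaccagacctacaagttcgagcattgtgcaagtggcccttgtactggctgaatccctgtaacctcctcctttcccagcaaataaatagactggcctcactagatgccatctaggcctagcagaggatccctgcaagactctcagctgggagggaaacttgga
The transcripts are alike too: 26.8% of the 50-base windows of Cyp3a59 occur in Cyp3a25, whose mean was 746 CPM against 36.9 for Cyp3a59, so that part of the Cyp3a59 signal cannot be told apart from Cyp3a25 reads. A match is a description of letters and not a site in use. Over the 46 promoters found for 41 of the 53 genes, AGGTCA occurred on either strand in 12, or 26.1%, against 16.3% of 32851 promoters in RefSeq. The D-box of Dbp, Tef and Hlf, spelled TTATGTAA or TTACGTAA, occurred in 0 of them, against 1.06% of all promoters. The E-box CACGTG occurred in the promoters of Cyp2j6 and Cyp4v3 (7.15% of all promoters), the aryl hydrocarbon receptor core TNGCGTG in that of Cyp2c68 (5.07%), and the ROR element, which is AANT followed directly by the AGGTCA core, in that of Cyp3a11 (0.219%). The direct repeats AGGTCANAGGTCA and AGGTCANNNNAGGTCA occurred in none of the 46, and in 0.0396% and 0.0152% of all.

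The low values at ZT15 led to a contrast chosen after the values were seen: ZT15 against the mean of ZT12 and ZT18, in edgeR's quasi-likelihood test with ZT as a factor. Of the 53 genes, 5 were lower at ZT15, against 4.18% of all genes, and 0 were higher, against 4.08% of all genes. These were Cyp3a59 at 0.509-fold (log2 -0.97, adjusted p = 0.00222), Cyp3a11 at 0.568-fold (log2 -0.82, adjusted p = 0.00238), Cyp2c55 at 0.563-fold (log2 -0.83, adjusted p = 0.00700), Cyp2r1 at 0.823-fold (adjusted p = 0.0151) and Cyp3a25 at 0.729-fold (adjusted p = 0.0260). The median log2 difference was -0.07 over the 53 genes and -0.0018 over all genes tested. Cyp4a14, a fatty acid hydroxylase, gave the lowest ratio at 0.383-fold, which was not called (adjusted p = 0.0591). Its libraries lay at 93.9, 227 and 791 CPM at ZT12, 17.9, 56.1 and 190 CPM at ZT15 and 65.4, 168 and 280 CPM at ZT18.

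ZT15 held the lowest median of the 8 ZT groups in 18 of the 53 genes, against 18.9% of all genes tested. The hepatocyte markers summed to 102139 to 116712 CPM at ZT15 against 84852 to 124593 over all times. The part of cell make-up in the low values at ZT15 was not tested. ZT15 was sampled in the first cycle alone in 6 mice, and the number of genes lower at ZT15 ranged from 2 to 7 when 1 library of ZT15 or ZT18 was left out: it was 2 without ZT15 replicate 4 and 3 without ZT18 replicate 1.

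**Figure D3:**
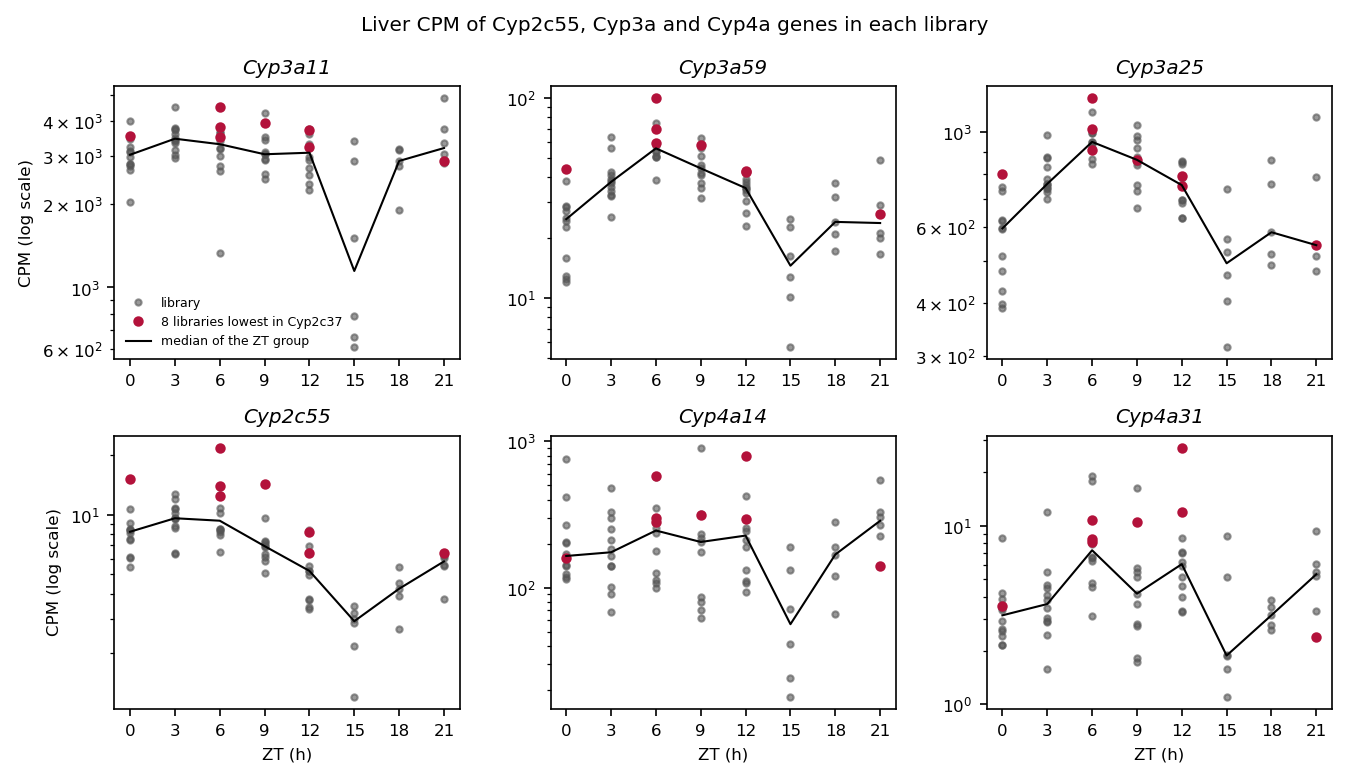
CPM (log scale) of 6 genes in each of 76 liver libraries against ZT, with the medians of the ZT groups joined; the libraries lowest in Cyp2c37 are in red. The medians of all 6 genes are lowest at ZT15, where the libraries of Cyp3a11 run from 609 to 3387 CPM.

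The Cyp4 families hydroxylate fatty acids at or near the terminal carbon, and the Cyp4a genes are the classical targets of PPAR alpha. Of 6 Cyp4a genes, 4 were called, against 74.8% of all genes. Cyp4a31 changed by 2.20-fold with a peak at ZT8.8 (adjusted p = 0.00184) and lay at 3.11, 7.28 and 18.8 CPM at ZT6 and 1.10, 1.87 and 8.80 CPM at ZT15, with overlap. Cyp4a32 changed by 1.87-fold with a peak at ZT5.7 (adjusted p = 0.00104) and lay at 15.8, 43.5 and 85.4 CPM at ZT3 and 12.0, 15.96 and 38.2 CPM at ZT15, also with overlap. The counts of both are uncertain, since 20.55% of the 50-base windows of Cyp4a31 and 43.8% of those of Cyp4a32 occur in another gene. Cyp4a10, at a mean of 284 CPM against 32.3 for Cyp4a32, holds 32.6% of the Cyp4a32 windows. Cyp4a12a and Cyp4a12b, the male-biased 20-HETE synthases, changed by 1.27- and 1.23-fold, and the reads of these copies cannot be fully told apart because 48.9% and 49.5% of their windows are shared. Cyp4a10 and Cyp4a14, the members most used as markers of PPAR alpha activity, were not called (adjusted p = 0.692 and 0.516): Cyp4a10 ranged from 123 to 586 CPM and Cyp4a14 from 114 to 756 CPM among the libraries of ZT0 alone.

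All 5 Cyp4f genes were called, where 74.8% of all genes were, and 2 had ratios of 1.5-fold or more, against 27.9% of all genes. Cyp4f17 had the largest at 2.04-fold with a peak at ZT22.4 (adjusted p = 7.92e-13), and lay at 6.18, 6.92 and 9.36 CPM at ZT9 and 14.8, 16.6 and 26.4 CPM at ZT3, with no overlap. Cyp4f14, an omega-hydroxylase of leukotriene B4, peaked at ZT0.1 at 1.35-fold and lay at 188 to 275 CPM at ZT12 and 286 to 418 CPM at ZT0, again apart. Cyp4f13 and Cyp4f15 changed by 1.15- and 1.22-fold with peaks at ZT10.2 and ZT9.1, and Cyp4f16, at a mean of 1.61 CPM, by 1.52-fold. Cyp4b1 changed by 1.21-fold with a peak at ZT0.1. Cyp4v3, the mouse counterpart of the gene mutated in human Bietti crystalline dystrophy, lay at 389, 454 and 539 CPM at ZT0 and at 358, 498 and 573 CPM at ZT12, gave 1.06-fold and was not called (adjusted p = 0.341). Markers of bile duct cells moved with the genes that peak near ZT0: the 4 cholangiocyte markers summed to a median of 18.2 CPM at ZT0 and 7.51 CPM at ZT12, and their part in the result was not tested.

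The remaining members act on signalling lipids and vitamin D. Cyp2r1, the vitamin D 25-hydroxylase, changed by 1.34-fold with a peak at ZT6.4 (adjusted p = 2.35e-08) and lay at 18.9 to 26.1 CPM at ZT6 and 13.3 to 17.1 CPM at ZT15, without overlap. Cyp2u1, a long-chain fatty acid hydroxylase, changed by 1.61-fold with a peak at ZT2.1 (adjusted p = 4.51e-06), and lay at 42.1, 58.7 and 71.2 CPM at ZT0 and 20.8, 26.9 and 46.2 CPM at ZT12. Its groups overlapped. Of the Cyp2j arachidonic acid epoxygenases, Cyp2j9 changed by 1.60-fold with a peak at ZT9.5 (adjusted p = 6.96e-06), and lay at 6.61, 10.8 and 14.8 CPM at ZT0 and 11.5, 18.0 and 24.96 CPM at ZT6, with overlap. Cyp2j5, the most abundant of the 3 per length, changed by 1.20-fold with a peak at ZT1.0 (adjusted p = 5.85e-08) and lay at 644, 682 and 711.9 CPM at ZT3 and at 441, 538 and 613 CPM at ZT12, with no overlap. Cyp2j6 was not called (adjusted p = 0.0602).

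A component of 12 h, tested beside the 24 h terms, was called in 7 of the 53 genes, against 17.2% of all genes. The smallest adjusted p-values belonged to Cyp4f17 (4.14e-05, a 12 h ratio of 0.55 on the log2 scale), Cyp2a5 (7.53e-05, 0.58) and Cyp2g1 (0.00182, 0.74). Cyp2c70, Cyp3a59, Cyp3a25 and Cyp2u1 were the others. For Cyp2a5 this is seen in the values, whose steepest step lay between a median of 361 CPM at ZT6 and 1062 CPM at ZT9.

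ZT0 to ZT12 were sampled again a day later in other mice, 30 libraries in the first cycle and 29 in the second. Between the cycles 0 of the 53 genes differed, and 0% of 15604 genes tested were called by edgeR's quasi-likelihood test; 6 of the 53 had an unadjusted p under 0.05, and 7.06% of all genes did. The smallest belonged to Cyp3a59, at means of 44.5 CPM in the first and 37.2 CPM in the second cycle (log2 -0.26, SE 0.09, adjusted p = 0.586), and to Cyp4a14, at 194 and 291 CPM (log2 0.61, SE 0.23, adjusted p = 0.598). Tested in each cycle alone, ZT changed 23 of the 53 genes in the first (51.3% of all genes) and 24 in the second (54.4%), and 19 were called in both. That is 82.6% of the calls of the first cycle and 79.2% of those of the second, where all genes gave 80.9% and 76.03%.

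Mice killed at the same time differed from each other more in some genes than in others. The SD of log2 CPM within a time point ranged from 0.09 for Cyp4f13 to 1.245 for Cyp2b10, with a median of 0.35 over the 53 genes. Cyp2a4 (1.09), Cyp4a14 (0.92), Cyp4a31 (0.78), Cyp2c69 (0.64) and Cyp4a10 (0.63) followed Cyp2b10. Cyp4a14 ranged from 17.9 to 898 CPM over the 76 libraries. The library of ZT6 replicate 7 was the highest or the lowest of all 76 in 16 of the 53 genes, 11 times as the highest. Leaving out each library in turn gave 35 to 39 called genes in liver.

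Across libraries, with the mean of the time point taken off, 6 pairs of genes were compared by permutation within time points. Cyp4a10 and Cyp4a14 went together, with a Pearson r of 0.685 and a Spearman rho of 0.691 over 76 libraries (adjusted p = 3e-05 for both, permutation test, the smallest p that 100000 permutations can give being 1e-05), and r was 0.746 without the 2 libraries farthest from the median. Some libraries, however, formed a cluster of their own in other genes. The 8 libraries lowest in Cyp2c37, which oxidises arachidonic acid, lay at 100.1 to 172 CPM, where every other library was at 211 CPM or more. These were also the 8 lowest of 76 in Cyp2c50, Cyp2c54, Cyp2d40, Cyp2d9 and Cyp1a2.

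In Cyp2c50 these libraries lay at 294 to 390 CPM and no other was under 535. In Cyp2d9 they lay at 725 to 954 CPM and no other was under 1283, and in Cyp2c54 they lay at 108 to 180 CPM and no other was under 208. In Cyp1a2 the gap was narrow, with 436 CPM the highest of the 8 and 438 CPM the next library. They came from 7 time points, namely ZT0 replicate 9, ZT6 replicates 2, 4 and 8, ZT9 replicate 11, ZT12 replicates 4 and 6, and ZT21 replicate 3, and held 30371077 to 36592373 counts. Not every gene was low in them. In Cyp4f16 the 8 lay at 2.60 to 4.25 CPM, and no other library was above 2.65. In Cyp2a4 they lay at 0.397 to 10.7 CPM, and no other was above 0.773. The low genes are not all separate either. Cyp2c37, Cyp2c50 and Cyp2c54 share 30.1%, 18.3% and 25.7% of their 50-base windows with another gene, mostly with one another. For Cyp2d9, Cyp2d40 and Cyp1a2 the shared part was 21.8%, 14.5% and 4.79%. The 8 libraries were picked by their low levels, so the gaps are a description with no test, and the cause was not tested.

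Results were therefore also taken without these 8 libraries, an alternative chosen after the values were seen. The number of called genes was 41 in place of 36, where 73.3% of all genes were called. Cyp1a2, Cyp2d40, Cyp2b10 (adjusted p = 0.000718), Cyp2j6 (0.0183) and Cyp4v3 (0.0255) were called in addition, and no call was lost. For Cyp1a2 and Cyp2d40 this is no independent result, since the 8 libraries left out are the lowest in these genes and their absence narrows the spread. Nor is it for Cyp2b10, where the 8 lay at 2.30 to 6.83 CPM against a median of 0.900 over all libraries. Of the 8 lowest libraries in Cyp4v3, 6 belong to this set, and in Cyp2j6 4 do. Among the other 68 libraries, Cyp4a10 and Cyp4a14 gave r = 0.839 and rho = 0.863 (adjusted p = 6e-05, permutation test). For Cyp1a2 and Cyp2e1, which share the pericentral zone, r was 0.705 over all 76 libraries (adjusted p = 3e-05) and 0.169 within the 68 (adjusted p = 0.233, with a rho of 0.286 and an adjusted p of 0.0589, permutation test). Cyp2d9 and Cyp4a12a, both male-biased, gave 0.516 over all 76 (adjusted p = 6e-05) and 0.292 within the 68 (adjusted p = 0.0470 for r and 0.0760 for rho, permutation test). The 8 libraries are the lowest in Cyp1a2 and in Cyp2d9, so leaving them out narrows the range of these genes and can by itself lower both values. Cyp2b9, which is no member, and Cyp2b10 gave an r of 0.0636 (adjusted p = 0.593) and a rho of 0.0478 (adjusted p = 0.838) over all 76, and passed only within the 68, with an r of 0.351 (adjusted p = 0.0257) and a rho of 0.340 (adjusted p = 0.0295, permutation test). That pass depends on the choice of libraries, since the 8 left out were all at 2.30 CPM or more in Cyp2b10. Cyp2a4 with Cyp2a5 gave an r of -0.137 over all 76 libraries and 0.186 within the 68. Cyp3a11 with Cyp2c29 gave -0.25 and -0.22, and neither pair passed in either set.

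**Figure D4:**
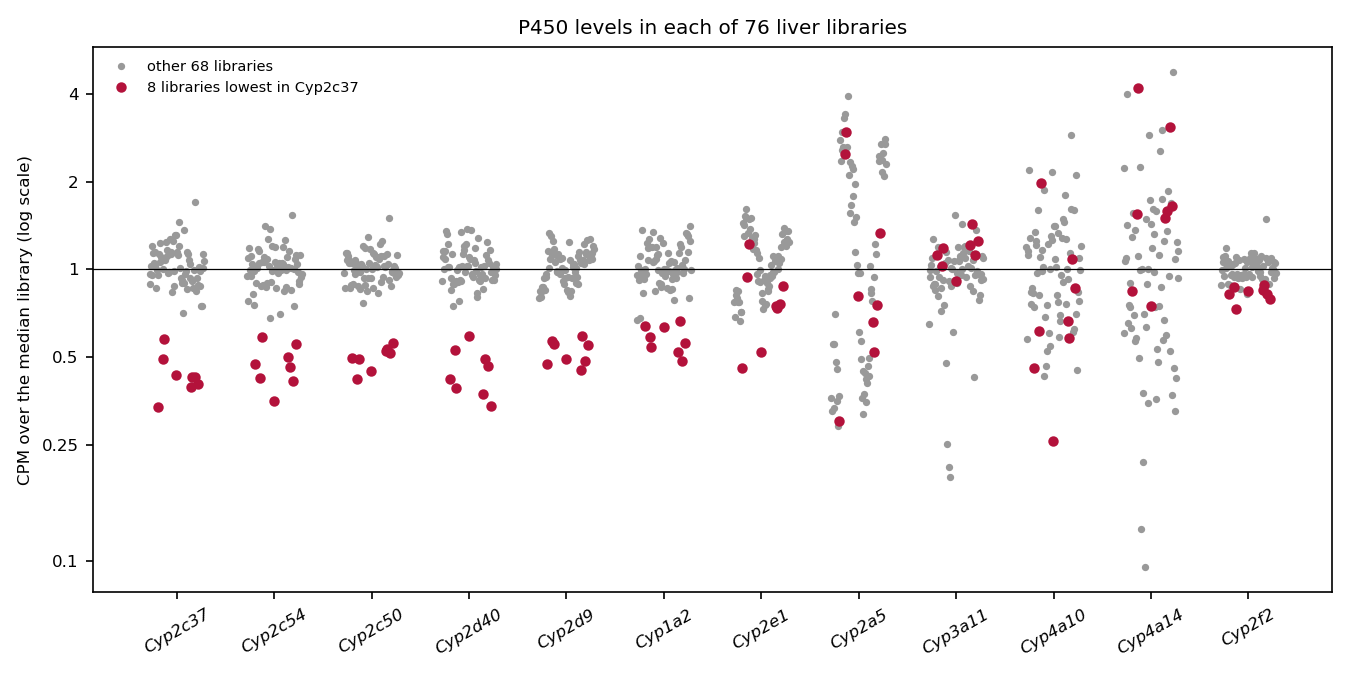
CPM of 12 genes in each of 76 liver libraries, divided by the gene's median library (log scale); red points are the 8 libraries lowest in Cyp2c37 and grey points the other 68. In Cyp2c37, Cyp2c54, Cyp2c50, Cyp2d40, Cyp2d9 and Cyp1a2 the red points lie below every grey point, while in Cyp3a11 and Cyp4a14 they lie among them.

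Genes grouped by known sex bias or liver zone gave mixed courses. The counts below stand beside 74.8% of all genes called in liver, and with lists this short they set no list apart. All 3 male-biased genes, Cyp2d9, Cyp4a12a and Cyp4a12b, were called at ratios of 1.23- to 1.30-fold. Of 9 female-biased genes 4 passed the filter on low counts and 3 were called, Cyp2a4, Cyp2c40 and Cyp2c69, all at a mean of 4.08 CPM or less in these males. Of 7 pericentral genes 6 were called, including Cyp2e1, Cyp2a5 and Cyp2c29, whose peaks lay at ZT12.0, ZT12.9 and ZT2.5. Of 4 periportal genes 3 were called, but not Cyp2f2. The ratios and times of pericentral members thus differed among themselves.

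Of 23 tested partners and regulators of P450, 21 were called and 11 at 1.5-fold or more, where 74.8% and 27.9% of all genes were. The list was chosen with earlier results of these data known and includes the clock-driven Dbp, Tef and Hlf. No result is therefore drawn from its higher shares. Por, which hands electrons to every one of these enzymes, changed by 5.30-fold with a peak at ZT12.7, from 82.0 to 743 CPM over the libraries. The peaks of Cyp2a5 and Cyp2e1 lay at ZT12.9 and ZT12.0, but other members peaked far from Por, such as Cyp4f14 at ZT0.1 and Cyp4f17 at ZT22.4. Dbp changed by 134-fold with a peak at ZT9.7, Tef by 7.54-fold at ZT11.7, Hlf by 1.98-fold at ZT13.2, and Nfil3, a repressor at the same D-box, by 4.75-fold at ZT22.1. Cebpb, a factor of the acute phase response, changed by 2.48-fold at ZT13.4. These 6 regulators and partners had the smallest adjusted p-values of the list, and the following were chosen after their values were seen. Alas1, the first enzyme of heme synthesis, changed by 8.54-fold with a peak at ZT14.8, Nr1i3 by 2.62-fold at ZT13.6, Ppara by 1.88-fold at ZT10.8 and Ahr by 1.21-fold at ZT11.4. Bcl6 and Cyb5r3 were the tested genes that were not called (adjusted p = 0.818 and 0.271).

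In brain most of these genes were near or under the limit of 0.5 CPM, which 13 of the 53 passed in cortex and 15 each in striatum and hypothalamus. Albumin, the defining transcript of hepatocytes, was at a median of 0.0287, 0.0129 and 0.0297 CPM there, against 81001 CPM in liver. The 6 hepatocyte markers together summed to medians of 25.4 CPM in cortex, 335 in striatum and 4.17 in hypothalamus, with highest libraries at 4369, 21597 and 100.3 CPM. Most of this was Ttr, which is also a marker of the choroid plexus, at medians of 24.3, 334 and 2.69 CPM, while Fgb and Serpina1c had a median of 0 in each. The part of these libraries in the brain results was not tested. The highest levels per length belonged to Cyp2d22, Cyp2j9 and Cyp2j6 in each tissue. Cyp2j9, an arachidonic acid epoxygenase known from mouse brain, stood at 6.54 ± 0.862 FPKM in cortex (n = 78), 13.4 ± 2.86 FPKM in striatum (n = 60) and 18.3 ± 2.57 FPKM in hypothalamus (n = 77). Cyp2d22 stood at 10.3 ± 1.23, 12.8 ± 2.01 and 14.1 ± 1.02 FPKM in the same order, and Cyp2j6 at 6.31 ± 0.707, 10.5 ± 2.08 and 10.6 ± 0.941 FPKM. Cyp2j9 was thus lower in cortex than in hypothalamus without overlap of the libraries (highest 9.97 against lowest 12.7 FPKM), while Cyp2j6 in striatum and hypothalamus did not differ beyond its spread.

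In cortex 6 genes changed over the day, where 43.7% of all genes were called, and 0 reached 1.5-fold, against 7.98%. Cyp4f13 changed by 1.251-fold with a peak at ZT8.3 (adjusted p = 3.70e-06), Cyp2j6 by 1.18-fold at ZT9.6, Cyp4f15 by 1.19-fold at ZT18.8, Cyp4v3 by 1.18-fold at ZT8.8 and Cyp4f16 by 1.11-fold at ZT6.0. Cyp2j6 lay at 17.9, 20.4 and 28.2 CPM at ZT0 and at 19.4, 24.2 and 35.01 CPM at ZT9, and Cyp4f15 at 11.6, 12.8 and 15.1 CPM at ZT9 and at 12.0, 15.1 and 17.7 CPM at ZT15. Cyp4f13 lay at 7.09, 8.53 and 11.3 CPM at ZT0 and at 9.43, 11.1 and 14.4 CPM at ZT6, with overlapping libraries. In each of the 13 genes the highest and the lowest ZT group overlapped, where 7.51% of all genes had groups that stayed apart. Cyp3a13 changed by 1.33-fold at ZT10.0, a call lost without ZT9 replicate 9 at 5.93 CPM (adjusted p = 0.0552). Without ZT0 replicate 1 and ZT9 replicate 9, the cortex libraries that stood far in markers, 7 genes were called. The 6 genes called over all libraries, Cyp3a13 among them, were kept.

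In striatum 3 genes were called, against 5.7% of all genes, and 1 reached 1.5-fold, against 3.09%. This was Cyp3a13, at 1.78-fold with a peak at ZT9.7 (adjusted p = 0.000267); its libraries lay at 3.54, 5.77 and 8.32 CPM at ZT9 and at 1.79, 3.02 and 3.43 CPM at ZT18, with no overlap. The highest and the lowest ZT group stayed apart in 2 of 15 genes, Cyp3a13 and Cyp4f14, against 20.3% of all genes. Cyp4f13 changed by 1.21-fold (adjusted p = 0.0275) and Cyp2j6 by 1.28-fold (adjusted p = 0.0492). Cyp2j6 lay at 31.8, 42.7 and 46.9 CPM at ZT12 and at 14.9, 29.7 and 39.5 CPM at ZT21, with overlap. Leaving out 1 of 60 libraries took away the call of Cyp4f13 in 6 cases and that of Cyp2j6 in 26. ZT15 had 2 striatum libraries and ZT18 had 4, and the first cycle alone gave 0 calls. Without ZT21 replicate 3 and ZT3 replicate 5, 3 genes were called, but Cyp2j6 was lost (adjusted p = 0.0736) and Cyp4f15 gained (adjusted p = 0.0145).

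In hypothalamus 6 genes were called, against 24.3% of all genes, and 2 reached 1.5-fold, against 4.59%. Cyp4f15 changed by 1.35-fold with a peak at ZT16.2 (adjusted p = 6.36e-07), Cyp3a13 by 1.54-fold at ZT10.8 (adjusted p = 0.000104), Cyp2j6 by 1.12-fold at ZT11.5, Cyp2j9 by 1.21-fold at ZT21.4 and Cyp2u1 by 1.11-fold at ZT18.3. Cyp4f15 lay at 7.09, 9.73 and 11.01 CPM at ZT6 and at 7.56, 12.2 and 13.3 CPM at ZT15, and Cyp2j9 at 54.7, 68.9 and 78.8 CPM at ZT0 and at 46.3, 53.5 and 75.8 CPM at ZT12. The libraries of these times overlapped in both genes. Cyp3a13 lay at 1.01, 1.74 and 2.34 CPM at ZT0 and at 2.05, 3.23 and 3.96 CPM at ZT9, with overlap. The highest and the lowest ZT group overlapped in each of the 15 genes, where 2.31% of all genes had groups that stayed apart. The call of Cyp2a5 (2.94-fold) rested on ZT12 replicate 9 at 8.16 CPM and was lost without it (adjusted p = 0.196). Without ZT0 replicate 9 and ZT9 replicate 9, 8 genes were called.

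Cyp3a13 was the only one of the 53 genes called in all 4 tissues, though its cortex call was lost without ZT9 replicate 9 alone. Its fitted peak was at ZT17.5 in liver and between ZT9.7 and ZT10.8 in the brain tissues, and the test of the difference in rhythm gave an adjusted p of 9.17e-07 for liver against cortex, 1.18e-10 against striatum and 5.45e-09 against hypothalamus. Such differences were common: 10 of 13 genes tested differed between liver and cortex, where 65.3% of all genes did, 10 of 15 between liver and striatum (42.8%) and 11 of 15 between liver and hypothalamus (61.4%). Cyp4f15 peaked at ZT9.1 in liver and at ZT18.8 in cortex (adjusted p = 4.09e-12) and ZT16.2 in hypothalamus (8.51e-10). Cyp2j9 peaked at ZT9.5 in liver and ZT21.4 in hypothalamus (adjusted p = 8.49e-09). For Cyp4f13 no difference was called between liver and any brain tissue (adjusted p = 0.0651, 0.302 and 0.809 for cortex, striatum and hypothalamus), which does not show that its courses were alike. Most mice gave several tissues, and with the mouse as a block these tests called 10, 9 and 11 genes, the call lost being Cyp2c23 in striatum (adjusted p = 0.233).

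**Figure D5:**
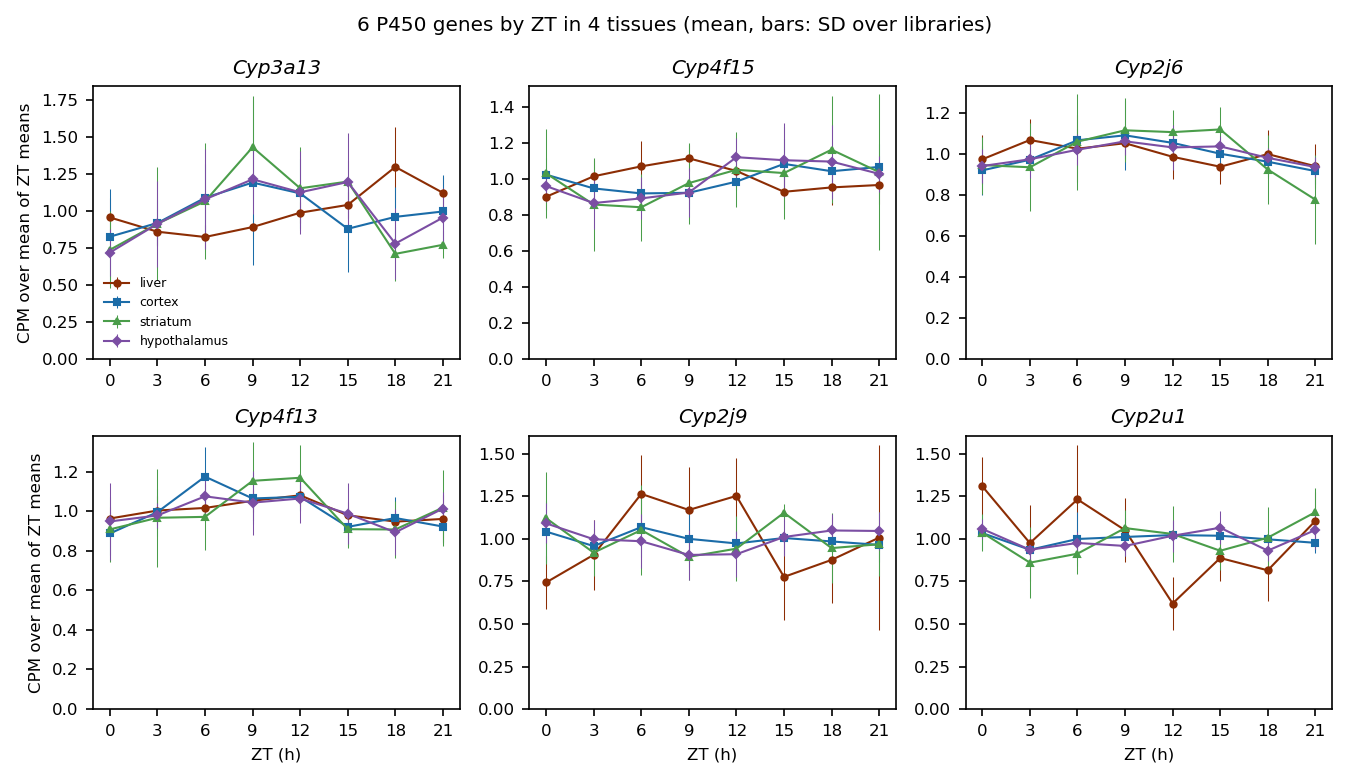
Mean CPM of 6 genes by ZT in liver, cortex, striatum and hypothalamus, divided by the mean of the 8 ZT means (bars are SD over libraries; striatum has 2 libraries at ZT15). The mean of Cyp3a13 is highest at ZT18 in liver and at ZT9 in each brain tissue, though its highest median in cortex is at ZT12. Cyp4f15 peaks at ZT9.1 in liver and ZT18.8 in cortex.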

How the data were processed

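Messenger RNA was measured in 292 libraries. Per the submitters' processing notes, STAR 2.7.3a and HTSeq 0.10.0 were used with the builds GRCm38 and mm10, and the authors deposited raw counts per gene and FPKM per gene for every library. Which annotation release they counted on, and with which strand setting, is not given in the sources used here. From the deposited counts, CPM was computed as each gene's count scaled to the same sum of gene counts in every library. The deposited FPKM served only for levels between genes, with no test. The number of per-sample columns left unmapped was 0.

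Rhythm was tested with edgeR 4.0.16 (quasi-likelihood, TMM scaling, filterByExpr by ZT group) on all genes, with Benjamini-Hochberg adjustment over all genes tested; the fits were tested on simulated data. DESeq2 1.42.0, other scaling, filters, shapes, cycles and blocks were alternatives. Correlations used log2 CPM with a prior count of 2 and 100000 permutations within time points. Promoters came from a RefSeq table (GRCm38.p6), and shared 50-base windows from the GENCODE M21 transcripts. A planned comparison of protein sequences is not analysed here.

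The members and lists were chosen with earlier results of these data known. Values by ZT were to be given for the 12 called members of largest ratio with a mean of 5 CPM or more, the 10 of highest FPKM in liver, the called and the 3 highest members of each brain tissue, the highest member of each subfamily group, members called between cycles and the 3 smallest adjusted p-values called for a 12 h component, and the 6 regulators of smallest adjusted p; any member could be named. Mouse codes join the tissues of 1 mouse, and libraries of a tissue came from different mice, so p-values measure the spread between mice. Replicate numbers only name libraries.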

Additional observations from a re-analysis of the deposited data

Results flagged for a closer look

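Far libraries were sought in 127 sets, each of 1 gene in 1 ZT group of 4 to 10 libraries. Independent and normally spread values would give about 1 in 20, but these sets share libraries, so no comparison with chance is made. In 13 sets 1 library stood far from the rest of its ZT group. In liver at ZT15 this was replicate 2, with Cyp1a2 at 551 CPM and Cyp4a32 at 38.2 CPM. At ZT18 it was replicate 5 with Cyp2c70 at 1517 CPM and replicate 6 with Cyp3a13 at 335 CPM. At ZT21 it was replicate 1 with Cyp2c55 at 3.75 CPM, replicate 2 with Cyp2j9 at 29.8 and Cyp4a32 at 86.4 CPM, and replicate 3 with Cyp2d9 at 795 CPM. In brain, Cyp2d22 stood apart in cortex at 29.3 CPM (ZT21 replicate 5), in striatum at 52.98 CPM (ZT21 replicate 3, the library with cerebellar markers) and in hypothalamus at 47.0 CPM (ZT15 replicate 3). Cyp2j9 stood apart in striatum at 59.7 CPM (ZT21 replicate 6) and Cyp2u1 in hypothalamus at 12.0 CPM (ZT15 replicate 2).

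The course over the day differed between liver and a brain tissue in the following genes, by edgeR's quasi-likelihood test of tissue by time with Benjamini-Hochberg adjusted p-values. Against cortex these were Cyp4f15 (4.09e-12), Cyp4f17 (2.04e-07), Cyp4f14 (2.23e-07), Cyp2u1 (8.42e-07), Cyp3a13 (9.17e-07), Cyp2j9 (2.78e-05), Cyp1b1 (0.00172), Cyp2d22 (0.00251), Cyp4b1 (0.00987) and Cyp4f16 (0.0189). Against striatum they were Cyp3a13 (1.18e-10), Cyp2a5 (1.84e-10), Cyp4f14 (7.48e-07), Cyp4f17 (1.23e-06), Cyp2u1 (1.33e-05), Cyp2j9 (0.000135), Cyp4f15 (0.000437), Cyp2d22 (0.00475), Cyp1b1 (0.0115) and Cyp2c23 (0.0302). Against hypothalamus they were Cyp4f17 (2.78e-10), Cyp4f15 (8.51e-10), Cyp3a13 (5.45e-09), Cyp4f14 (6.09e-09), Cyp2j9 (8.49e-09), Cyp2e1 (2.43e-07), Cyp2u1 (5.57e-07), Cyp2d22 (5.57e-05), Cyp1b1 (0.00240), Cyp2a5 (0.00368) and Cyp4f16 (0.00638).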

How the results depend on the processing

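The liver count of 36 called genes lay between 30 and 41 under every alternative run, and no called gene's fitted peak moved by more than 6 h. Leaving out each library gave 35 to 39 genes in liver (16 to 18 at 1.5-fold), 6 to 6 in cortex (0 to 0), 1 to 3 in striatum (1 to 1) and 5 to 9 in hypothalamus (1 to 3, with 1 without ZT12 replicate 9), and 2 to 7 genes lower at ZT15. The brain counts changed most: with ZT as a factor striatum had 1 call, and the first cycle alone gave 0 in striatum (0 at 1.5-fold) and 1 in hypothalamus (0 at 1.5-fold), from fewer samples. Without the 8 libraries lowest in Cyp2c37, r was 0.351 for Cyp2b9 with Cyp2b10 and 0.169 for Cyp1a2 with Cyp2e1. These 8 are also the lowest in Cyp1a2, so its range was narrower, and they were all at 2.30 CPM or more in Cyp2b10. Of single-gene values, 876 kept their side of the threshold, 30 lost and 21 gained a call.

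Replicate numbers did not pair the libraries: the median correlation of deviations was 0.00660 for the same number and -0.00158 for others, and 12 of 76 libraries went best with their own number. With the replicate block, 36 genes were called in liver, 6 in cortex, 2 in striatum and 7 in hypothalamus (1 at 1.5-fold). With another scaling, the mean scaling factors of the ZT groups moved against each other by at most 0.0224 (log2), in striatum. Depth limits the genes near 0.5 CPM and most brain values. Copies that share sequence limit Cyp2a4, Cyp3a59, Cyp4a12a, Cyp4a12b, Cyp4a31, Cyp4a32, Cyp2c37, Cyp2c50, Cyp2c54 and 4 other Cyp2c genes, among others.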
